A study of Mus musculus with 18 samples.

Results

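Cxcl12, Cxcr4 and Ackr3 encode a chemokine and the pair of receptors that bind it, and they were followed as 3 of the 20275 genes of a single-cell RNA count matrix of mouse bone marrow (BM). The genes were chosen by name, and all 3 were found in the matrix. On mm10, with gene models of GENCODE vM21, Cxcl12 (ENSMUSG00000061353.11) is a protein-coding gene on the plus strand of chromosome 6 from 117168535 to 117181367. Cxcr4 (ENSMUSG00000045382.6) lies on the minus strand of chromosome 1 from 128588199 to 128592293, and Ackr3 (ENSMUSG00000044337.5) lies on the plus strand of the same chromosome from 90203980 to 90216751. No other annotated gene overlapped any of them.

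CXCL12 is a secreted chemokine of BM stromal cells. It binds CXCR4, a G protein-coupled receptor on blood cells, and this pair is known to draw hematopoietic stem and progenitor cells (HSPCs) to the marrow and to retain them there. ACKR3, also called CXCR7, binds the same ligand without classical G protein signaling and removes it from the surroundings, so it is known as a scavenger of CXCL12. In adult marrow the best known source is the CXCL12-abundant reticular (CAR) cell, a perisinusoidal stromal cell that also makes stem cell factor (Kitl).

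The study captured C57B6/J marrow with the droplet 3' v3.1 chemistry at embryonic day (E) 16.5, E18.5, postnatal day (P) 0 and in adults, and asked how blood progenitors and their surroundings change around birth. The labels name no mutation or treatment for any group. Hematopoietic progenitors (HP) were sorted as Lineage-Kit+ cells and stroma as CD45-Ter119- cells. Perinatal marrow came from whole skeletons without the head and adult marrow from tibias, femurs, pelvis and spines, each pooled over several animals, so that stage and the bones sampled cannot be told apart. There were 9 mRNA libraries, of which E16.5 HP had 2 and every other group had 1, and each had an antibody-tag library from the same cells.

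The HP libraries held 560 to 6208 cells with a median of 6747 to 23291.5 UMIs (distinct captured RNA molecules) per cell, and the stromal libraries held 6267 to 14084 cells with a median of 11810 to 15590.5 UMIs. Total UMIs ran from 13974733 in E16.5 HP 1 to 194892476 in P0 stroma. Levels are given as CPM, the UMIs of a gene scaled to a fixed total of all UMIs of a group of cells, with exact 95% Poisson intervals in brackets, and shares of cells have exact Clopper-Pearson limits. These intervals cover counting error only, and a change of stage seen in 1 library per stage has no replicate check and no test. Nothing states that the E16.5 HP pair came from separate pools of embryos, so the spread between them may be technical.

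Cell types are the cluster codes that the authors deposited for each cell. They were made from the expression of the same cells, so differences between codes are descriptions. Perinatal C codes mostly led with the chondrocyte-lineage marker list, and P codes with the muscle or pericyte list, although adult P4 led with erythroid markers ahead of pericyte ones. Adult C9 and C11 led with osteolineage and then chondrocyte-lineage genes, and adult C10 with basophil and then osteolineage genes. F codes were mixed: E16.5 F1 and F3, E18.5 F3i, P0 F3ii and F7 and adult F8 led with the PaS list (Pdgfra, Ly6a and Dpp4, genes of a mesenchymal progenitor) ahead of fibroblast genes, E16.5 F4 led with pericyte or smooth muscle genes, adult F13 led with PaS and then osteolineage genes, adult F9 and F10 led with osteolineage genes, F2 led with osteolineage genes at the 3 perinatal stages, E18.5 F3ii led with mast and then fibroblast genes, P0 F3i led with myeloid progenitor and then PaS genes, and E16.5 F5 and F6 and adult F11 led with lists of blood cells. They are therefore called F codes here. Some HP codes also led with another list than their name: adult Mono4 and Mono5 (402 and 355 of 933 Mono cells) and P0 HSPC4 led with myeloid progenitor genes, HSPC1 with monocyte or dendritic genes in E16.5 HP 1 and with T-cell genes in E16.5 HP 2, adult MyP4 (701 of 1203 MyP cells) with erythroid genes, P0 Mono1 with megakaryocyte genes, E18.5 MyP1 with HSPC genes, P0 Mast4 (274 of 534 mast-code cells) with fibroblast and chondrocyte-lineage genes and adult Mast4ii with sinusoidal genes. HP names below are those of the codes. UD codes were left undefined by the authors, and ECs, AECs and SECs are endothelial, arterial and sinusoidal cells. In adult stroma the markers of AECs and SECs matched their names. Sox17 and Gja4 (arterial genes) were at 237 and 272 CPM in AECs, and Stab2 and Flt4 (sinusoidal genes) were at 471 and 285 CPM in SECs. The reticular list (Cxcl12, Lepr, Kitl, Adipoq, Foxc1 and Ebf3) led in CARs. It holds Cxcl12 itself, so it is no separate check of that name. Perinatal ECs had Sox17 at 101, 189 and 157 CPM and Stab2 at 0, 13.8 and 10.2 CPM at E16.5, E18.5 and P0. Code P1 of adult stroma had the muscle genes Pax7, Myod1 and Des at 343, 207 and 1019 CPM and is treated as a muscle code.

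Some cell barcodes occurred in more than 1 library. There were 1102 such barcodes, covering 2472 of the 56201 cells, mostly among the HP libraries. The largest overlaps were 375 barcodes between E18.5 HP and adult HP and 330 between E16.5 HP 1 and adult HP, and the E16.5 HP pair shared 1. In E16.5 HP 1, 334 of 560 cells (59.6%) had a shared barcode, while in adult HP the code Mast4i had 96.5% and Mast4ii 81.7%, and in P0 HP the code Mast4 had 76.3%. E18.5 Mast/Bas had 97.6% (40 of 41 cells), adult MyP4 51.5%, of which 335 cells were shallower copies with a median of 485 UMIs, and E18.5 EryP/MegP 40.0% and MyP2 34.96%, with 0 and 2 shallower copies. The class levels of Cxcr4 in HP libraries were also computed without the shallower copies, and the adult ones are given beside the main values.

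Cxcl12 was a stromal transcript at every stage and was far higher in adult stroma than before. Whole-library Cxcl12 was 47.9 [46.7–49.2] CPM in E16.5 stroma, 42.1 [40.9–43.3] in E18.5 stroma, 54.9 [53.9–56.0] in P0 stroma and 885 [879–891] in adult stroma. The 3 perinatal libraries lay close together and their intervals did not overlap with each other, and the adult library stood apart from all of them. A UMI of Cxcl12 was found in 20.8%, 18.0%, 19.9% and 40.6% of stromal cells in the same order, and in 4.53%, 4.46%, 4.57% and 18.2% once each cell was thinned to 1000 UMIs. Without CARs the adult level was 231 [228–235] CPM.

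In HP libraries Cxcl12 was close to 0, with a UMI in 0.238% of all HP cells. The levels were 0.215, 0.261, 0.139 and 0.0863 CPM in E16.5 HP 1, E16.5 HP 2, E18.5 and P0. Adult HP stood higher at 2.62 CPM, and 142 of its 155 UMIs lay in 56 cells that the authors coded Stroma, and 126 of those were in a single cell. In E16.5 HP 2, 4 of 25 Cxcl12 UMIs and 10 of 18 Ackr3 UMIs lay in the 112 cells of its UD codes, of which UD2 led with muscle and fibroblast genes.

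Adult CARs held the highest Cxcl12 of any code at any stage, 20241 CPM in 359 cells, or 60734 UMIs. The study defines CAR cells by high Cxcl12 and Kitl, so this rank was set in part by the name. AECs followed at 1936 [1881–1993] CPM, then the PaS-led codes F8 at 723 [709–737] and F13 at 586 [546–629], then P4 at 403 [373–435] and SECs at 347 [321–375]. The intervals of P4 and SECs touched at their ends, and those of the codes above them did not overlap. Osteolineage cells (129 [119–138] CPM) and C11 (127 [117–137]) could not be told apart, and the 8 remaining codes ran from 19.3 CPM in C9 to 64.3 in P1.

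**Figure D1:**
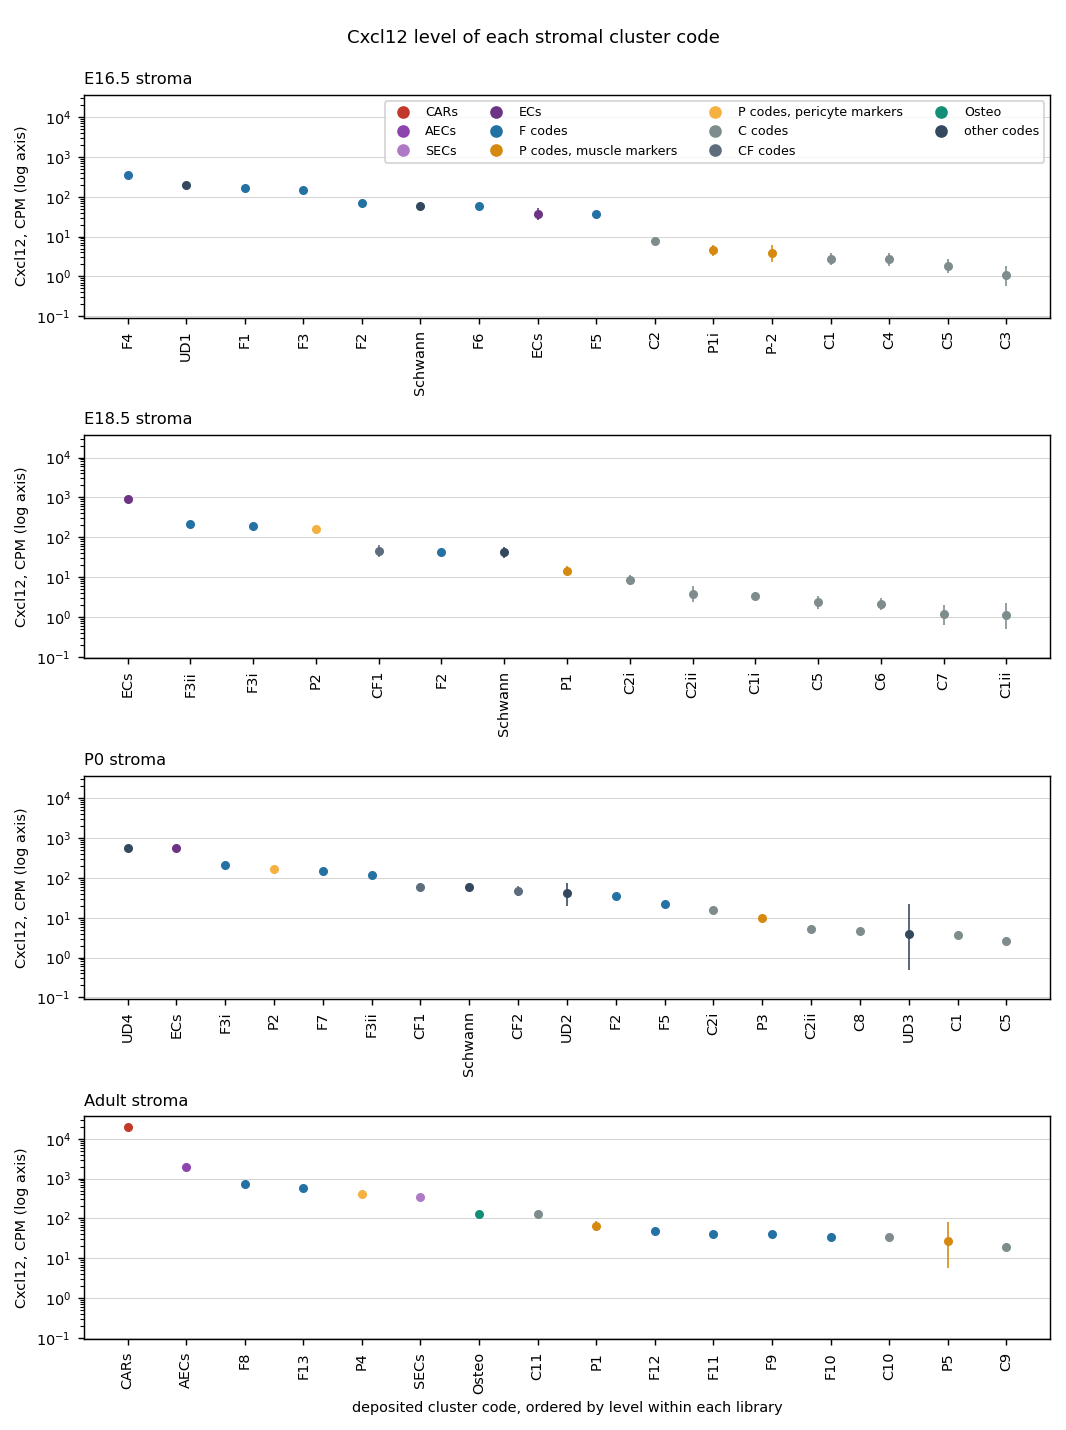
Cxcl12 level of each cluster code in the 4 stromal libraries, in CPM of summed UMIs on a log axis, with exact 95% Poisson intervals as bars. Adult CARs lie at 20241 CPM, above AECs at 1936, while the highest perinatal codes are ECs at E18.5 (891) and UD4 at P0 (564).

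Before adulthood the code with the highest Cxcl12 was F4 at E16.5 and ECs at E18.5, and at P0 it was UD4 or ECs. At E16.5, F4 had 357 [338–377] CPM, UD1 192 [160–229], F1 167 [160–175] and F3 147, while ECs had 37.9 [26.1–53.3]. F4 stood clear of the rest, and UD1 and F1 overlapped. F4 carried the pericyte genes Acta2 and Rgs5 at 1343 and 637 CPM.

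At E18.5, ECs had 891 [832–953] CPM, F3ii 210 [194–228] and F3i 191 [183–199], with P2 at 165 [147–184]. At P0, UD4 (564 [516–615] CPM) and ECs (551 [522–581]) shared the top with overlapping intervals, above F3i (215 [207–223]) and P2 (169). ECs thus stood below F2, Schwann and F6 at E16.5 and at or near the top afterwards. Chondrocyte-lineage codes, the most numerous perinatal cells, ranged from 1.09 to 7.64 CPM at E16.5, from 1.12 to 8.66 at E18.5 and from 2.63 to 15.7 at P0.

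Few cells held the endothelial Cxcl12. At E18.5, 5 of the 94 ECs held the larger part of their Cxcl12 UMIs and the highest cell held 14.8%, and at P0 8 of 223 ECs did so. In CARs 109 of 359 cells were needed and the highest cell held 0.881%, in AECs 51 of 400, and in E16.5 F4 38 of 290. The adult codes F13, C11, P4 and SECs had a like concentration, where 2 of 70, 2 of 138, 5 of 170 and 3 of 194 cells held the larger part. Single cells carried 27.2% of the UMIs in F13 and 35.8% in C11.

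At E18.5 and P0, ECs with arterial transcripts had most of the endothelial Cxcl12. This split by any UMI of Gja4, Gja5 or Sox17 was chosen after the levels were seen and uses cells of 1 library per stage. At E18.5, Cxcl12 was at 1240 [1156–1328] CPM in 55 ECs with an arterial UMI and 94.3 [62.1–137] in 39 without. At P0 the values were 752 [712–794] CPM in 135 cells and 40.6 [27.0–58.6] in 88. Of the cells with an arterial UMI, only 20 of 55 at E18.5 and 61 of 135 at P0 had a Cxcl12 UMI. At E18.5 the 30 ECs with a UMI of Stab2 or Flt4 had 710 CPM, and the 10 of them without an arterial UMI had 92.4. At E16.5 no such gap was seen, with 38.5 [23.5–59.4] CPM in 38 cells against 37.1 in the others. Cells without an arterial UMI were shallower, with a median of 7863 against 11419 UMIs at E18.5 and 7138.5 against 11508 at P0, and the part of depth in the split was not tested. The adult codes followed the same order by name, AECs above SECs, although within AECs cells with and without an arterial UMI had 1927 and 1960 CPM. Within SECs the order was the opposite, with 190 [159–224] CPM in 77 cells with an arterial UMI and 447 [409–488] in 117 without.

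Because codes differ in size, the share of all stromal Cxcl12 molecules shows which cells held the message. F codes held 90.4% of Cxcl12 UMIs at E16.5, 68.1% at E18.5 and 67.5% at P0, with 24.6% to 34.7% of the cells. ECs held 0.59% of UMIs at E16.5, and 17.7% at E18.5 and 12.6% at P0 with 1.42% and 1.58% of the cells. Chondrocyte-lineage codes were 43.1% to 61.4% of perinatal cells and held 3.57% to 5.29% of the UMIs. In adult stroma CARs held 74.7% of UMIs with 5.73% of cells, and F codes 15.3% with 56.6% of cells. AECs held 5.73% of UMIs and SECs 0.79%. In such pooled shares, more cells of a type and more RNA per cell cannot be told apart, and digestion and sorting set how many cells of each type were captured.

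**Figure D2:**
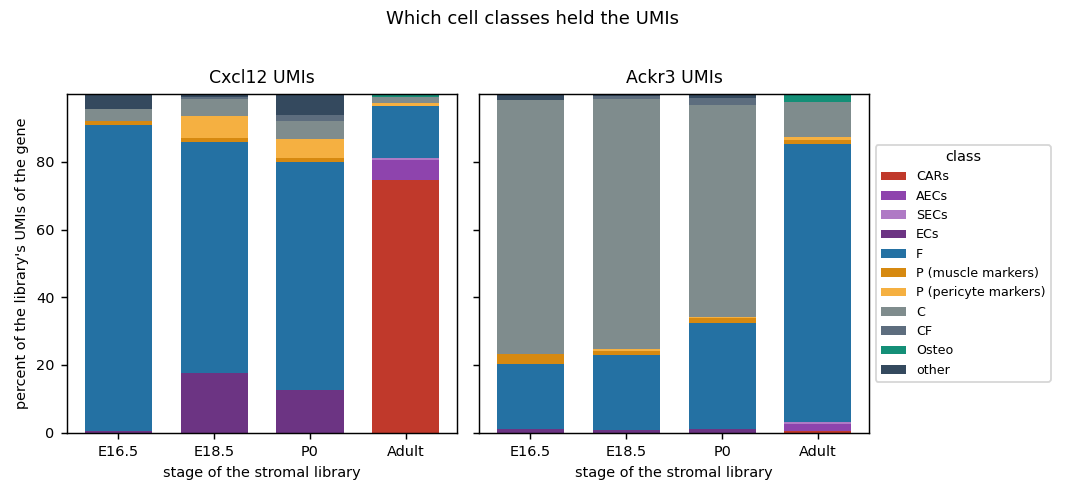
Percent of all Cxcl12 (left) and Ackr3 (right) UMIs of each stromal library that each class of codes held, as stacked bars by stage. F codes hold 90.4% of Cxcl12 at E16.5 with 34.7% of cells, and 15.3% in adults with 56.6% of cells, where CARs hold 74.7%. C codes hold 75.2% of Ackr3 at E16.5 with 50.2% of cells, and 10.5% in adults with 17.5% of cells. Adult C codes did not lead with the chondrocyte-lineage list.

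Single perinatal cells rarely reached the level of a CAR cell. With each cell thinned to 1000 UMIs, CARs had a median of 25 Cxcl12 UMIs, with quartiles of 15 and 32 and a 5th percentile of 1.9, and AECs had a median of 1. A level of 2 or more was reached by 341 of 359 CARs, 44.5% of AECs, 14.3% of F8 and 6.66% [6.03–7.32] of all adult stromal cells other than CARs. At E16.5, E18.5 and P0 it was reached by 0.879%, 0.803% and 0.825% of stromal cells. By share of a code, the highest were E16.5 F4 (34 of 290 cells), E18.5 ECs (12 of 83), P0 ECs (18 of 197) and P0 UD4 (11 of 75). By number, F codes held most of them, such as 24 of the 52 cells at E18.5 in F3i and 39 of the 104 at P0 in F7.

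Most listed reticular genes were also highest in CARs. Kitl, Lepr, Adipoq, Foxc1 and Ebf3 are also in the marker list of that name, so their rank is no separate check of it. CARs ranked first of 16 adult codes for Kitl (stem cell factor, 1005 CPM, against 468 in AECs), Lepr (the leptin receptor, 794 against 51.2 in F10), Adipoq (adiponectin, 2177 against 24.3 in SECs) and Il7 (a lymphoid cytokine, 107 against 4.57 in AECs). They also ranked first for Foxc1 and Ebf3, transcription factors of reticular cells, at 413 and 500 CPM, and for Vcam1, Csf1, Angpt1, Ebf1 and Esm1. Among the 5 listed stromal regulators of Cxcl12, Nr2f2 and Hif1a did not lead in CARs and ranked 5th and 12th.

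In the perinatal codes highest for Cxcl12, Adipoq was at 0 to 1.8 CPM and Lepr at 5.5 to 52.5 CPM. Kitl was present, at 213, 330 and 303 CPM in ECs of E16.5, E18.5 and P0 and at 410 CPM in E18.5 F3ii.

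Cxcr4 was the gene of the blood compartment, and its whole-library level was lowest at E16.5 and highest in adults. It was 11.3 [9.61–13.2] CPM in E16.5 HP 1, 19.3 in E16.5 HP 2, 32.2 in E18.5 HP, 33.5 in P0 HP and 47.1 in adult HP. The E16.5 libraries lay below all others and also differed from each other by more than counting error, and the intervals of E18.5 and P0 overlapped. A UMI was found in 12.7%, 26.3%, 29.4%, 38.0% and 29.7% of cells, and in 0.919%, 1.67%, 4.01%, 3.53% and 6.12% after thinning, so thinning turned the order of E18.5 and P0. Stromal libraries stood at 0.934 to 2.13 CPM and chondrocyte-lineage C1 codes, which should lack the gene, at 0.074 to 0.18 CPM. The HP libraries differed in composition. Mast codes, which were low in Cxcr4, made up 46.25% and 38.0% of the E16.5 HP cells and 4.66%, 8.60% and 5.36% later. T-cell codes made up 3.21% and 45.1% of the E16.5 pair. The part of composition in the order of whole-library levels was not tested.

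Eosinophil and basophil codes had high Cxcr4 from E18.5 on, and some neutrophil, B-cell and adult Mono codes lay near them. Eosinophil and basophil codes together had 32.6 CPM from 35 UMIs in 79 cells of E16.5 HP 2, and 96.8, 99.2 and 97.5 CPM at E18.5, P0 and in adults. E16.5 HP 1 had 40 Cxcr4 UMIs in only 18 such cells, too few for a level here, which were 25.3% of its Cxcr4 UMIs against 1.89% in E16.5 HP 2, so the low E16.5 level rests on 1 of the 2 libraries. B-lineage codes had 71.3, 43.0, 63.3, 60.7 and 55.1 CPM over the 5 libraries in order of stage and so did not move one way. Mono codes had 33.7, 27.7 and 69.7 CPM and MyP codes 27.6, 30.3 and 50.4 CPM at E18.5, P0 and in adults. Without the shallower copies of shared barcodes the adult values were 69.7 CPM for Mono, 51.1 for MyP and 93.7 for eosinophil and basophil codes. By share of Cxcr4 UMIs, T-cell codes held 78.6% in E16.5 HP 2 with 45.1% of its cells, eosinophil and basophil codes 34.6% and 33.9% at E18.5 and P0, and Mono codes 34.4% in adult HP. In E16.5 HP 1, T-cell codes held 5.70% with 3.21% of the cells, and B-lineage codes led with 27.2%.

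Within libraries, the top codes often overlapped. In E16.5 HP 2, Bcell1 (43.0 CPM) and Neu1 (37.9) led and the T-cell codes ran from 9.31 to 35.3 CPM. At E18.5, Eos/Bas2 (97.4 [89.4–106] CPM), Bas1 (an interval of 81.5–110) and Neu2 (83.5) led, above Bcell1 (63.3 [55.3–72.2]). At P0, Neu2 had 130 CPM from 12 UMIs in 28 cells, with an interval that covered Bas2 (105 [99.5–111]) and BCell2 (103). In adult HP, Eos/Bas4 (97.5), Bcell4 (94.1) and Mono4 (84.8) overlapped, and Neu3 (73.8 [66.9–81.1]) lay below Eos/Bas4. At the low end, erythroid and megakaryocyte codes had 6.40, 9.58 and 13.0 CPM at E18.5, P0 and in adults.

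**Figure D3:**
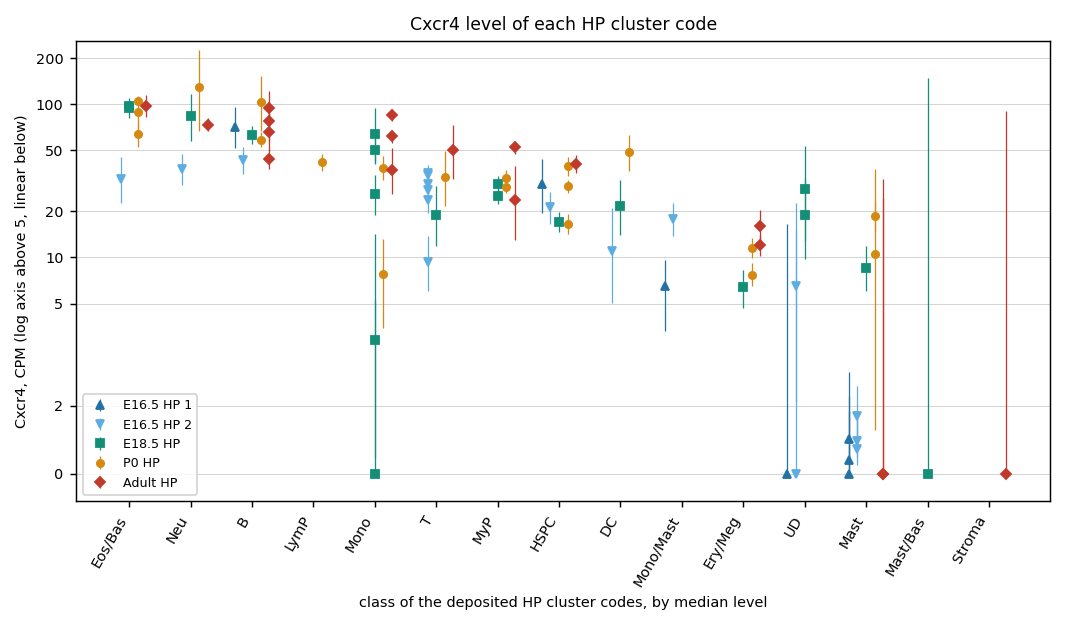
Cxcr4 level of each cluster code in the 5 HP libraries, in CPM with exact 95% Poisson intervals, grouped by class on an axis that is logarithmic above 5 CPM and linear below. Taken as a class, eosinophil and basophil codes had 96.8, 99.2 and 97.5 CPM from E18.5 on, with Neu2 at E18.5, Neu2 and BCell2 at P0 and Bcell4 and Mono4 in adults overlapping their top codes, and mast and erythroid or megakaryocyte codes lie lowest.

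HSPC codes stood in the middle of the range. They had 29.96 CPM in E16.5 HP 1 (25 UMIs in 33 cells), 21.2 in E16.5 HP 2 (68 UMIs in 165 cells), 17.1 in E18.5 HP, 26.6 in P0 HP and 40.9 in adult HP. The E16.5 pair spanned the P0 value, and the adult value was the highest. In the test by stage the spread comes from the 2 E16.5 libraries alone, with 1 residual degree of freedom, and each lone library is assumed to vary like that pair. Against E16.5 the log2 fold changes were −0.53 ± 0.45 (SE), 0.18 ± 0.43 and 0.97 ± 0.43 for E18.5, P0 and adult, with edgeR quasi-likelihood adjusted p-values of 0.823, 1 and 0.171, and none passed. Of the 12163 genes tested, 3.94%, 5.2% and 7.93% were called, and over the alternatives the adult p ran from 0.150 to 0.647. The E16.5 HSPC codes carried the HSPC marker list at 270 and 257 CPM, against 515 to 625 later, and the monocyte or dendritic list at 10613 and 4872 CPM, against 398 to 682. The mast list was at 3626 and 4443 CPM, against 177 to 296 later. The T-cell list was at 174 and 1279 CPM, against 17.1 to 201. The neutrophil list was higher later, at 0 and 8.11 CPM against 19.95, 308 and 1565 at E18.5, P0 and in adults. The myeloid progenitor list was at 1622 and 633 CPM, against 501, 3178 and 3044 in the same order. The part of these other cells in the result was not tested.

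Cells gated on surface antibodies had Cxcr4 from 2.69 to 40.4 CPM, and some values lay below those of the HSPC codes. Immunophenotypic (ph) long-term HSCs (Sca-1+CD135-CD48-CD150+) numbered 10, 28, 33, 114 and 134 cells and had Cxcr4 at 10.9, 26.3, 6.30, 13.7 and 22.8 CPM over the 5 libraries. The E16.5 HP 1 value rests on 2 UMIs, with an interval of 1.32–39.2 CPM. At P0 and in adults this gate caught more cells than the study counted as phLT-HSCs. The later stages fell inside or near the range of the E16.5 pair. The log2 fold changes were −1.75 ± 1.59, −0.60 ± 1.40 and 0.50 ± 1.36 for E18.5, P0 and adult (edgeR adjusted p = 1 for each). For phMPP2s (Sca-1+CD135-CD48+CD150+), a multipotent progenitor with erythroid and megakaryocyte bias, the levels were 2.69, 25.2, 18.5, 23.7 and 40.4 CPM in 10, 64, 74, 116 and 103 cells. Their log2 fold changes were 0.03 ± 0.83, 0.43 ± 0.79 and 1.41 ± 0.78 (edgeR adjusted p = 1, 1 and 0.675). The shares of all genes called were 0.731%, 0.571% and 1.47% for phLT-HSCs and 1.26%, 1.55% and 3.57% for phMPP2s. In E16.5 HP 1, Cd48 was at 114 CPM in the CD48- phLT-HSCs and 105 CPM in the CD48+ phMPP2s, with no Slamf1 (CD150) UMI in either. The gate caught other lineages too, and most of the E16.5 cells behind both tests carried codes of other lineages. In E16.5 HP 2, T-cell codes made up 22 of the 28 phLT-HSCs and 42 of the 64 phMPP2s, and in E16.5 HP 1 the code Mono/Mast made up 9 of the 10 phLT-HSCs and 7 of the 10 phMPP2s. No E16.5 phLT-HSC carried the code HSPC1, and 5 phMPP2s did. Of the adult phLT-HSCs, 38.8% carried Bcell3. The part of these cells in the stage comparisons was not tested.

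Cxcr4 was higher in mast codes of E18.5 and P0 than in those of E16.5. Mast cells are tissue granulocytes that need KIT, so they are kept by the Kit sort. Their codes had Cxcr4 at 0.543 CPM (4 UMIs) and 1.19 CPM (39 UMIs) in the E16.5 pair, 8.57 CPM (36 UMIs) at E18.5 and 18.2 CPM (75 UMIs) at P0. Both later values lay above both E16.5 values. The log2 fold changes against E16.5 were 3.00 ± 0.48 at E18.5 and 4.14 ± 0.45 at P0 (edgeR). Cxcr4 passed the low-count filter of this fit only through the E18.5 and P0 libraries, 1 each, so the gene entered through the groups where it was high. The fit is therefore no test of this change, and no p-value is given for it. With DESeq2 on the same filter the log2 changes were 3.08 and 4.23, and without that filter they were 2.99 and 4.14 (edgeR). Adult mast codes had no Cxcr4 UMI in 321 cells, which allows up to 14.0 CPM, and most of these cells were shallow copies of barcodes of other libraries.

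Without the shallower copies the mast changes were 2.88 and 4.07, and Mast3 alone had 18.6 CPM at P0. The codes behind the class differ by stage: Mast1 and Mast2 at E16.5, Mast3 at E18.5, and Mast3 and Mast4 at P0. Markers of other cells also differed by stage, some higher and some lower than at E16.5. Summed over their lists, in order of stage with adults last, mast markers were at 52682, 67475, 16749, 24708 and 34011 CPM, neutrophil markers at 0.679, 5.20, 19.5, 47.0 and 3182 CPM, and basophil markers at 1207, 1426, 330, 527 and 707 CPM. B-cell markers were at 10.7, 17.5, 78.5, 56.7 and 114 CPM, and myeloid progenitor markers at 113, 156, 129, 460 and 962 CPM. The part of these cells in the change was not tested.

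**Figure D4:**
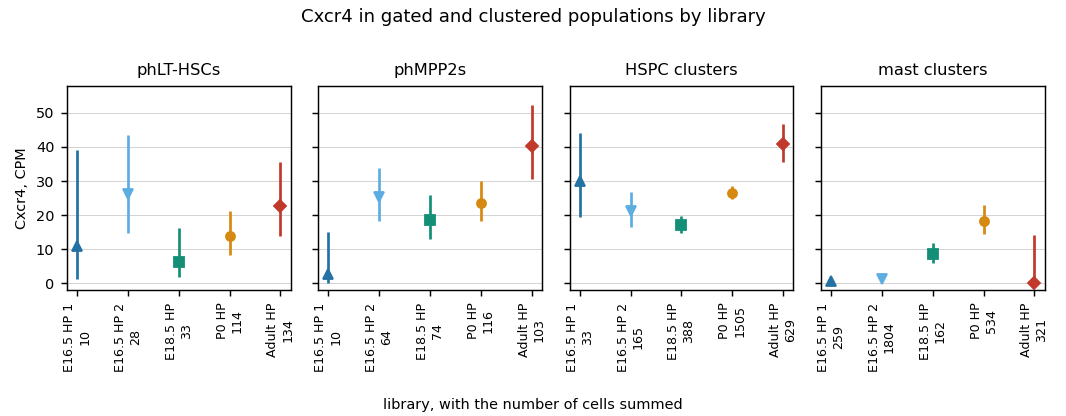
Cxcr4 level in each of the 5 HP libraries for phLT-HSCs, phMPP2s, HSPC codes and mast codes, in CPM with exact 95% Poisson intervals. In mast codes the E18.5 and P0 values (8.57 and 18.2) lie above both E16.5 values (0.543 and 1.19). In HSPC codes and phMPP2s the adult value (40.9 and 40.4) lies above both E16.5 values. Those of E16.5 HP 1 rest on 25 UMIs in 33 HSPC-code cells and on only 10 phMPP2s.

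Few stromal codes had Cxcr4. The highest were adult P1, the muscle code, at 64.3 CPM with a UMI in 27.0% of cells, and AECs at 33.3 CPM with 11.0%. At E18.5, ECs had 15.9 CPM, at P0 7.78 and at E16.5 4.60. CARs had 2.00 CPM.

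Ackr3 was stromal and was also highest in adults. The stromal libraries had 8.72 [8.19–9.27], 16.1 [15.4–16.9], 22.4 [21.8–23.1] and 111 [109–113] CPM at E16.5, E18.5, P0 and adult, with no overlap of intervals and each stage above the one before it. The share of cells with a UMI was 9.02%, 15.7%, 17.7% and 43.6%, and 0.915%, 1.54%, 2.43% and 9.43% after thinning. In HP libraries together it had 33 UMIs in 20982 cells, or 0.0913 CPM.

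The perinatal codes with the highest Ackr3 were the C2 codes, which were low in Cxcl12. These had 30.6, 44.5 and 59.9 CPM at E16.5, E18.5 and P0, against 1.92, 7.00 and 8.00 CPM in C1 codes. C codes held 75.2%, 73.9% and 62.8% of all stromal Ackr3 UMIs, with most of the stromal UMIs outside C2 (C2 had 376 of 1019, 484 of 1815 and 1316 of 4374), and at P0 F codes held 31.4%. F7 at P0, at 44.3 [41.5–47.2] CPM, was the highest perinatal F code.

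In adult stroma Ackr3 was highest in F13 and F8, the codes that led with the PaS list. F13 had 729 [684–777] CPM with a UMI in 97.1% of its 70 cells, F8 272 [264–281], F10 216 and P1 174 [146–206]. F codes held 82.0% of the UMIs with 56.6% of the cells, and C codes 10.5% with 17.5%. CARs, the top Cxcl12 code, ranked 15th of 16 for Ackr3 at 16.0 [11.8–21.2] CPM and held 0.47% of it. F8 and F13 thus carried both Cxcl12 and Ackr3. UMIs of both genes were found in 533 F8 cells, where 554 would be met if they fell independently, and in 166 F7 cells of P0 against 207 and 45 F3i cells of E18.5 against 70.8. Other codes lay close to or above the independent count, as with 59 against 51.9 in P0 C2i, 53 against 51.3 in P0 F3i and 26 against 21.1 in E16.5 C2.

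Antibody tags on the same cells gave a readout other than the mRNA. Cells above a centred log-ratio (CLR) of 1 were called positive, and positive and negative sums of each library were compared with the library as a block. In stroma the transcript of each antigen was higher in the positive cells. Pdgfra was higher in CD140a+ cells by 1.80 (log2; edgeR adjusted p = 0.00438), Ly6a in Sca-1+ cells by 5.03 (0.00707) and Pecam1 in CD31+ cells by 6.81 (0.000214).

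Cxcl12 was higher in CD140a+ than in CD140a- stroma before adulthood and lower in adults. The levels were 135 against 19.0 CPM at E16.5, 151 against 24.9 at E18.5, 139 against 34.8 at P0 and 547 against 970 in adults. Over all 4 libraries the change was 1.60 ± 0.66 log2 (edgeR adjusted p = 0.118), and it did not pass, where 31.4% of 15715 genes did. Without the adult library it was 2.36 and passed (edgeR adjusted p = 0.00023), where 7465 of 15944 genes did. That fit leaves out the only library with the other direction, so the pass adds no support. Over all alternatives the adjusted p reached 0.971. In adult stroma 3.9% of CARs were CD140a+ by antibody, with Pdgfra transcript at 217 CPM, against 90% of F13 and 47.1% of F8, and the part of CARs in the adult direction was not tested.

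Sca-1 gave a like picture. Cxcl12 was at 73.2 against 44.8 CPM, 114 against 32.9 and 127 against 45.4 in Sca-1+ and Sca-1- stroma of the perinatal stages, and 786 against 909 in adults, for a change of 0.84 ± 0.34 (edgeR adjusted p = 0.135). Ackr3 was higher in Sca-1+ cells of all 4 libraries, at 11.1 against 8.42, 20.7 against 15.6, 31.1 against 21.3 and 257 against 76.2 CPM, with a change of 0.71 ± 0.22 that missed the threshold (edgeR adjusted p = 0.0764). Ackr3 passed without the adult library (edgeR adjusted p = 0.00663), as Cxcl12 did (0.00273), where 3963 of 15847 genes were called. For Cxcl12 that fit leaves out the only library with the other direction, so its pass adds no support. The highest values over the alternatives, 0.981 and 1.00, came without the library block. In this split over all 4 libraries 18.4% of genes were called.

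Ackr3 in the CD140a split turned with stage, at 6.85 against 9.34, 13.3 against 16.6, 21.9 against 22.6 and 261 against 73.4 CPM. Its change over all 4 libraries was 0.12 ± 0.43 (edgeR adjusted p = 0.847). Without adults, the only library with the other direction, it was −0.36 (edgeR adjusted p = 0.0281), where 7465 of 15944 genes were called. Over the alternatives its adjusted p ran up to 0.910. CD31, an endothelial antigen, split Cxcl12 the same way in all 4 libraries, at 57.0 against 46.9, 178 against 32.1, 117 against 46.3 and 970 against 868 CPM (0.92 ± 0.40, edgeR adjusted p = 0.207, and 0.0435 without adults and up to 1.00 otherwise). Cxcr4 was also higher in CD31+ cells of all 4, at 1.82 against 1.16, 3.101 against 0.773, 1.67 against 1.17 and 7.21 against 1.13 CPM (1.35 ± 0.39, edgeR adjusted p = 0.111, with 0.00726 to 0.368 over the alternatives). Here 4.3% of genes were called, and 1421 of 16102 without the adult library. The CD31+ sums were not endothelial codes alone. In adults they had Ackr3 at 216 CPM, against 66.7 CPM in AECs and SECs together, so these values are not levels of endothelial cells.

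**Figure D5:**
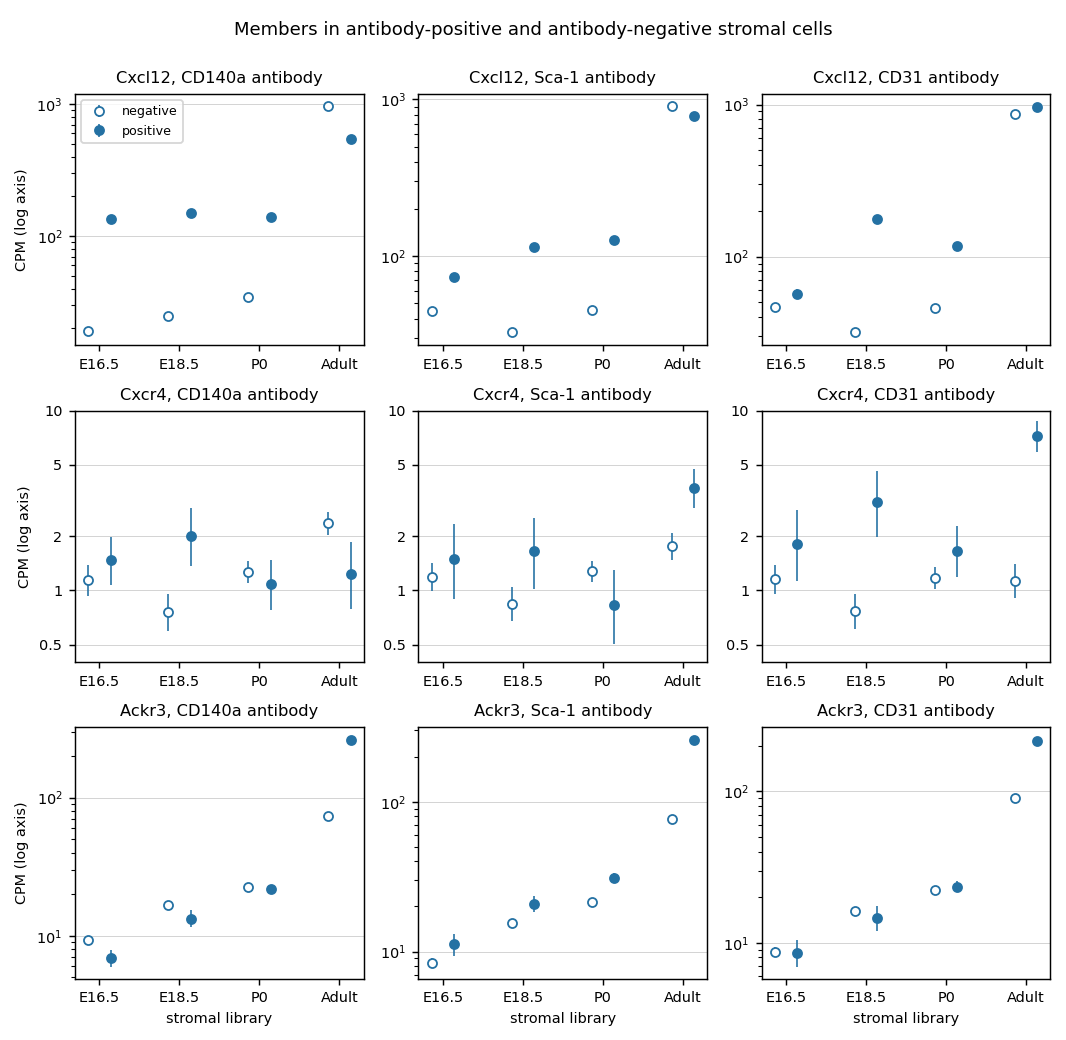
Cxcl12, Ackr3 and Cxcr4 levels in antibody-positive and antibody-negative stromal cells of each library for CD140a, Sca-1 and CD31, in CPM with exact 95% Poisson intervals. Cxcl12 is higher in CD140a+ cells in the 3 perinatal libraries (135 against 19.0 CPM at E16.5) and lower in adults (547 against 970).

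In HP cells no antibody split of Cxcr4 passed. The transcripts of 2 of the 4 antigens passed, Ly6a by 3.68 in Sca-1+ cells (edgeR adjusted p = 0.00794) and Slamf1 by 2.71 in CD150+ cells (0.0287), while Cd48 by 0.79 (0.0877) and Flt3, the transcript of CD135, by 2.20 (0.0677) did not. CD150+ cells had less of it in 4 of 5 libraries, at 5.43 against 13.0, 23.3 against 18.7, 15.4 against 35.9, 15.3 against 37.7 and 22.0 against 51.7 CPM, with E16.5 HP 2 the exception. The change was −0.89 ± 0.25 (edgeR adjusted p = 0.130), where 1.34% of 12644 genes were called. It passed without E16.5 HP 2 (−1.24, edgeR adjusted p = 0.00165), where 430 of 12650 genes were called. That fit leaves out the only library with the other direction, so the pass adds no support. The adjusted p rose to 1.00 without the library block. MegP codes made up 43.2% of adult and 49.7% of P0 CD150+ cells, and T-cell codes were the largest group in E16.5 HP 2. The changes for Sca-1, CD48 and CD135 were −0.14 ± 0.17, 0.34 ± 0.23 and 0.12 ± 0.09 (edgeR adjusted p = 0.587, 0.522 and 0.415), with 16.9%, 0.0295% and 0.125% of genes called. By Sca-1 the libraries differed in direction, at 9.48 against 11.8, 28.5 against 17.7, 24.7 against 34.3, 32.6 against 33.7 and 42.0 against 48.4 CPM.

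A wider list of the axis was followed in the same tests. It held ligands, receptors, proteases that cut CXCL12, G proteins, desensitizing proteins, effectors, stromal regulators and reticular genes. In the stage fits the low-count filter could be met by a single library. A listed gene could thus enter only through a group where it was high. Calls and directions of listed genes in the stage fits are therefore descriptions and no tests. In HSPC codes, 9, 10 and 8 of its 46 tested genes passed at E18.5, P0 and adult, of which 2, 4 and 3 were higher than at E16.5, beside 3.94%, 5.2% and 7.93% of all genes. Angpt1, a ligand of the TIE2 receptor, rose by 1.61, 1.69 and 2.31 log2, and Cd74, a receptor for MIF that antigen-presenting cells carry, fell by 8.42, 8.30 and 8.38. Cd74 is also one of the monocyte or dendritic markers that were high in the E16.5 HSPC codes.

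In mast codes, 12, 15 and 3 of 45 listed genes passed, all but 1, 1 and 0 of them higher, beside 7.16%, 10.8% and 2.11% of all genes. Those that rose at E18.5 included Rgs2 and Arrb2, which dampen receptor signaling, by 1.57 and 1.28, Jak2, a kinase of cytokine receptors, by 1.26, and Dpp4, a peptidase that inactivates CXCL12, by 2.22. The G protein gene Gnai1 fell by 1.58. Most of all genes called in these mast fits were also higher, so the direction is not particular to the list. The listed genes went through the same low-count filter as Cxcr4. Which of them entered only through a later library was not checked. In phLT-HSCs 1, 3 and 3 of 41 passed, all higher, and in phMPP2s 4, 4 and 5 of 44, of which 2, 3 and 4 were higher, beside 0.731%, 0.571% and 1.47% and 1.26%, 1.55% and 3.57% of all genes.

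In CD140a+ stroma 18 of 47 listed genes passed, 12 of them higher, where 31.4% of all genes passed, so the list was near the background. Dpp4 was higher by 3.098, Csf1 (a macrophage growth factor) by 1.39 and Ebf3 by 1.29, and the log2 change was −0.98 for Mif and −0.97 for Foxc1. In Sca-1+ stroma 16 of 47 passed, 13 of them higher, beside 18.4% of all genes, with Dpp4 by 3.19 and Kitl by 1.69. In CD31+ stroma 8 of 49 passed, all higher, beside 4.3% of all genes, of which 610 were higher and 62 lower, among them Kitl by 1.60 and Nr2f2, a transcription factor of venous endothelium, by 1.30. In HP cells the list gave 6 of 46 for Sca-1, 3 of 46 for CD150, and none of 47 for CD48 or of 45 for CD135, beside 16.9%, 1.34%, 0.0295% and 0.125% of all genes.

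Genes that tracked each member were sought over the 138 library-by-code groups with at least 50 cells, as Pearson r of log2(CPM + 1) across 12423 genes. These points share libraries, depth and base composition, and r is a description. Closest to Cxcl12 were Fbln5 (0.91) and Pcdh19, Kitl, Igfbp5 and Rarres2 (each 0.89), with Ackr3 at 0.75 and Cxcr4 at −0.46. Over the 65 stromal groups alone, Kitl stood at 0.82, Vcam1 at 0.73, Ebf3 at 0.69, Ackr3 at 0.26 and Foxc1 at −0.07. Cxcr4 stood at 0.50 there, so its sign with Cxcl12 was the opposite of that over all groups. Among those closest to Cxcr4 were 2310001H17Rik (0.91), S1pr4 (0.84) and Klhl6 and Mirt1 (each 0.82). Closest to Ackr3 were Anxa8 (0.93), Prelp (0.92), and Scara3, Prkd1 and Emp2 (each 0.91).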

How the data were processed

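Single-cell 3' mRNA and antibody-tag libraries of 9 sorted bone marrow samples were analysed. The authors deposited raw UMI counts per gene and cell, raw antibody-tag counts of the same cells, and a table of cell labels. Per the labels and the study's methods, the counts were made with Cell Ranger 3.1.0 on mm10 and filtered in Seurat 3.1.5 (R 4.0): rare genes, cells with few UMIs or a high mitochondrial share, and the deepest cells of each library, taken as putative doublets, were removed, and blood cells were removed from the stroma. No further doublet caller was run. This filter removes part of the deepest cells and can lower counts of highly expressed genes. Values in 11 further columns of the label table were not used.

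UMIs were summed per library and code, with codes under 20 cells not given a level, and divided by the summed UMIs to give CPM. Shares of cells were also computed after thinning each cell to 1000 UMIs, leaving out shallower cells. Antibody counts were CLR-transformed within each library, and values above 1 were called positive. Summed counts were tested with edgeR 4.0.16 (quasi-likelihood, TMM, filterByExpr, Benjamini-Hochberg over all genes tested, adjusted p under 0.05): each stage against E16.5, and antibody-positive against antibody-negative cells with library as a block. DESeq2 1.42.0, RLE scaling, no filter, other CLR levels (0.75 and 1.5), no block and leaving out libraries were alternatives, and leaving out the shallower copies of shared barcodes was added after the data were seen. Sums needed at least 10 cells. R 4.3.3, Python 3.11.15, numpy 2.4.6, scipy 1.17.1 and pandas 2.3.3 were used, and the tests were checked on simulated data.

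The genes, the lists and the tests were chosen with earlier results of these data known. Named genes were the 3 members, the genes of the signaling and marker lists, the antigens of the antibodies and the 5 genes closest to each member in correlation, among genes with at least 10 CPM in at least 5 groups, of which 1 is not reported here. Adrbk1, Adrbk2 and Cxcl11 were listed and are not in the matrix used here.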

Additional observations from a re-analysis of the deposited data

Results flagged for a closer look

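Several antibody splits pointed one way at some stages and the other way at others, with intervals that did not overlap between positive and negative cells. These differences between stages rest on 1 library each (2 for E16.5 HP) and were not tested. For Cxcl12 in stroma, the level of CD140a+ over CD140a- cells was 7.08, 6.06 and 4.01 in the E16.5, E18.5 and P0 libraries and 0.563 in the adult library. For Cxcl12 by Sca-1 the ratios were 1.63, 3.46, 2.80 and 0.865 in the same order.

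For Ackr3 by CD140a the ratio was 0.734 at E16.5 and 0.803 at E18.5, but 3.55 in adults. For Cxcr4 by CD140a in stroma it was 2.64 at E18.5 and 0.526 in adults, on low levels. In HP cells the ratio of Cxcr4 in CD48+ over CD48- cells was 2.01 in E16.5 HP 1, 2.11 in E16.5 HP 2 and 1.45 in adult HP, but 0.759 in P0 HP. T-cell codes made up much of the CD48+ cells of E16.5 HP 2, and their part in these ratios was not tested.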

How the results depend on the processing

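Of the alternatives to the values that answer a comparison, 212 kept both the direction and the side of the threshold, or stayed within the error, 28 moved, 12 newly passed, 2 no longer passed and 16 changed sign. Of those to the counts of genes called, 72 stayed within 1.5 times the count and 69 moved by more. The first tally includes the mast changes at E18.5 and P0, whose fit is no test. The 2 that no longer passed are among these mast changes and are not taken as results. Where a value moved, the cause was not tested. Leaving mitochondrial, ribosomal protein and hemoglobin genes out of the total gave Cxcl12 of 22909 CPM in CARs, 2283 in AECs and 752 in P0 ECs, Ackr3 of 81.7 in P0 C2 codes and 837 in F13, and Cxcr4 of 66.8 in adult HSPC5 and 161 in P0 Bas2. The mean of each cell's own CPM gave 23770 in CARs, 2276 in AECs and 117 for Cxcr4 in Bas2. In adult HP cells coded Stroma, Cxcl12 moved from 3465 CPM to 12149 with cells of at least 1000 UMIs, 668 by cell means, 4504 by the other total and 4701 without the shallower copies. Cxcr4 in E16.5 HSPC1 ran from 21.2 to 29.96 CPM between the pair. Without thinning, shares with a UMI were 99.7% (CARs, Cxcl12), 86.5% (AECs), 33.2% (P0 ECs), 97.1% (F13, Ackr3) and 26.4% (HSPC5, Cxcr4), and at 2000 UMIs 75.9% in AECs, 70.0% in F13 and 6.93% in HSPC5.

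The phLT-HSC change at E18.5 turned to 0.38 at a CLR level of 0.75 (edgeR adjusted p = 1). The mast changes under DESeq2 were 3.08 and 4.23. Cxcr4 by CD150 passed with DESeq2 (−0.92, adjusted p = 0.0124) and at a CLR level of 1.5 (−1.40, edgeR adjusted p = 0.0350), as did Ackr3 by Sca-1 (0.67, adjusted p = 0.0218, and 0.95, adjusted p = 0.0110) and Cxcr4 by CD31 (1.34, adjusted p = 0.0210, and 2.30, adjusted p = 0.00726). Cxcr4 by CD140a was −0.020 without a filter, −0.062 without the block, −0.010 at a CLR level of 0.75 and −0.0033 without the shallower copies. Without the block, Cxcl12 was −0.18 by CD140a and −0.049 by Sca-1, and Ackr3 by CD31 was −0.090 at a CLR level of 1.5.

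Leaving out 1 library at a time, log2 changes ran from −2.19 to −0.78, −1.04 to 0.33 and 0.06 to 1.45 for phLT-HSCs at E18.5, P0 and adult, −0.50 to 2.56, −0.13 to 2.95 and 0.88 to 3.94 for phMPP2s, −0.79 to −0.33, −0.084 to 0.37 and 0.71 to 1.17 for HSPC codes, and 2.65 to 3.71 and 3.78 to 4.84 for mast codes, all without a test. For Cxcr4 in HP they ran from −0.35 to −0.023 (Sca-1), −1.24 to −0.77 (CD150), 0.15 to 0.58 (CD48) and 0.05 to 0.19 (CD135). The Sca-1 change passed without E16.5 HP 2, the only library higher in Sca-1+ cells (edgeR adjusted p = 0.0318). That fit called 3373 of 12891 genes. In stroma the log2 changes ran from 1.23 to 2.36, −0.36 to 0.40 and −0.37 to 0.35 for Cxcl12, Ackr3 and Cxcr4 by CD140a. They ran from 0.55 to 1.25, 0.38 to 0.83 and 0.09 to 0.69 by Sca-1, and 0.46 to 1.26, −0.14 to 0.34 and 0.87 to 1.68 by CD31.

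Counts of genes called fell under DESeq2 in all stage fits, to 19, 16 and 53 from 64, 50 and 129 in phLT-HSCs, 35, 21 and 139 from 133, 164 and 378 in phMPP2s, 238, 302 and 396 from 479, 632 and 965 in HSPC codes, and 107, 124 and 125 from 816, 1233 and 240 in mast codes. Other settings raised them to 198 for adult phLT-HSCs (a CLR level of 0.75), to 1262, 1245 and 1269 for mast codes at E18.5 (no filter, cells of at least 1000 UMIs, and without the shallower copies) and to 394 for adult mast codes (no filter). Over all alternatives the antibody counts ran from 0 to 3373 (Sca-1, 2166), 0 to 803 (CD150, 169), 0 to 429 (CD48, 4) and 0 to 1011 (CD135, 15) in HP, and 246 to 7465 (CD140a, 4928), 4 to 4025 (Sca-1, 2865) and 61 to 2961 (CD31, 672) in stroma, where the last number is the main count. No paired analysis was possible because stages after E16.5 have 1 library each, which applies to the stage comparisons only. The antibody splits were paired within libraries, with library as a block. A CLR level of 1.5 left too few E16.5 cells for the phLT-HSC and phMPP2 tests, and adult mast codes had no count to compare.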
